A study of Mus musculus with 32 samples.

Results

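Cytosolic ribosomal protein genes encode the structural proteins of the large (Rpl, Rplp) and small (Rps, Rpsa) subunits of the ribosome that translates nuclear messages. The members here are all probe sets that the array annotation ties to 1 gene of this family. S6 kinases, a ribosomal protein binding protein, a pseudogene and ribosomal protein-like paralogs were left out. They came to 95 probe sets for 43 genes, out of 45137 non-control probe sets for 18193 genes in the series. Array A, the first of the 2 Affymetrix array types used, held 91 of them for 42 genes, and array B held 4 for 3 genes. Symbols alone chose the members, but the family and the rule were chosen with earlier results of these data known. A further 102 probe sets on array A and 10 on array B list a ribosomal protein gene together with other genes, and these are not members.

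The RNA was that of primary fibroblasts cultured from mouse embryos (MEFs) at early passage, a mixed population of connective tissue cells. There were 4 groups of 4 extracts: Oct-1 mutant irradiated, Oct-1 mutant unirradiated, wild type irradiated and wild type unirradiated. Oct-1 is the POU domain transcription factor encoded by Pou2f1, which binds the octamer sequence. Each of the 16 extracts was hybridised to both array types, which gave 32 samples. Not given in the sources used are the mutant allele, the strain, the dose, the time after irradiation and whether replicates are separate embryos or cultures, so a p-value reflects only the spread among these samples, which may be technical. No probe set was annotated to Pou2f1 alone, so the mutant label was not checked against the gene itself.

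Ribosomal protein messages are among the most abundant in a growing cell, and their amounts are kept close to each other because the proteins are assembled in fixed proportion. In mammals most of them begin with a 5′ terminal oligopyrimidine (TOP) tract, a C at the cap followed by an unbroken run of C and T (U in the RNA), which lets mTOR signalling and the protein Larp1 set their translation. Unassembled ribosomal proteins such as Rpl5, Rpl11, Rpl23, Rps7 and Rpl26 can bind Mdm2 or p53 messages and raise p53, which links ribosome assembly to the response to stress.

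RefSeq promoters (build GRCm38.p6, 250 bases before the annotated start and 50 after it) were found for 38 of the 43 genes, 44 promoters in all. The windows below run 15 bases on each side of the annotated start on the coding strand. They are shown for some of the genes that are described closely or had the strongest probe sets, picked by hand. Rpl22, Rps19 and Rpl11 are also described by sample and have promoters, but are not shown. The printed windows therefore do not stand for the 44 promoters, whose shares are given after them. Capitals mark every run of at least 5 bases that are all C or T.
Rplp0, chr5:115559452-115559481, plus strand: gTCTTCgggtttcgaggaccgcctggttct
Rplp2, chr7:141447636-141447665, plus strand: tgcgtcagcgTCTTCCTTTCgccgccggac
Rpl14, chr9:120571502-120571531, plus strand: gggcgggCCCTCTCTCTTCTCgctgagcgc
Rpl35, chr2:39005117-39005146, minus strand: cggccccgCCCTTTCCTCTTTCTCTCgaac
Rpl37a, chr1:72711245-72711274, plus strand: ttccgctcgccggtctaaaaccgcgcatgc
Rps6, chr4:86857353-86857382, minus strand: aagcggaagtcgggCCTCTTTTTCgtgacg
Rps7, chr12:28635939-28635968, minus strand: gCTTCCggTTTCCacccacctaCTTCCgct
Rps10, chr17:27635230-27635259, minus strand: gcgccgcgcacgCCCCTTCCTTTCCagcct
Rps18, chr17:33955651-33955680, minus strand: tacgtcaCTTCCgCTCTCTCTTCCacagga
Rps25, chr9:44407699-44407728, plus strand: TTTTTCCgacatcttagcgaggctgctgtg
Rpsa, chr9:120127751-120127780, plus strand: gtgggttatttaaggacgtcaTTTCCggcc

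An unbroken run of at least 8 bases of C or T lay in this window in 17 of the 44 member promoters (38.6%), against 12% of all 32851 RefSeq promoters. A C at the annotated start followed by 4 bases of C or T was found in 8 of them (18.2%), against 2.51% of all promoters. Of the genes printed, Rplp2, Rpl14, Rpl35, Rps6, Rps10 and Rps18 have such a start. The annotated starts of Rplp0, Rpl37a, Rps25 and Rpsa do not fall on a C. The Rps25 run is cut by the edge of its window and goes on upstream, as the promoter printed below shows. Rps25 is therefore not among the 17 counted. The letters CTTTC were present in the window of 10 member promoters (22.7%) and of 4.05% of all promoters. The letters CTTCC were present in 5 (11.4%) and in 6.63% of all promoters.

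The promoters of Rps25 and Rps6 are printed because these genes had the probe sets that differed between the genotypes in both irradiated and unirradiated cells. Each shows the 250 bases before the annotated start, and capitals mark CCGGAAG, a core of the sites bound by ETS family factors.
Rps25, chr9:44407464-44407713, plus strand: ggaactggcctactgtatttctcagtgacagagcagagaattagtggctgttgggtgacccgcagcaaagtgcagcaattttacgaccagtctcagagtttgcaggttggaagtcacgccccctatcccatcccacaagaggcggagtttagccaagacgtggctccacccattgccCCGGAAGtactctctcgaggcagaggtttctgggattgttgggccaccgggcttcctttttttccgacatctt
Rps6, chr4:86857368-86857617, minus strand: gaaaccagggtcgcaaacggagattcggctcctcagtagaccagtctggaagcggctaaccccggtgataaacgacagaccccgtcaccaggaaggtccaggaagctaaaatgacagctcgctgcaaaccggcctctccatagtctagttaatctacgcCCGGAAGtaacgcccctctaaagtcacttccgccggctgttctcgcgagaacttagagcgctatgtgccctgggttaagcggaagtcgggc

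Searched on both strands over the 300 bases, CCGGAAG was found in 19 of the 44 member promoters (43.2%) and in 8.86% of all promoters. The octamer ATGCAAAT was found in 0 of the 44 member promoters and in 1.74% of all promoters, so these exact letters are in neither the Rps25 nor the Rps6 window. The E-box CACGTG was found in 5 member promoters (11.4%) and in 7.15% of all. TATAAA was found in 5 member promoters (11.4%) and in 13.6% of all. These matches describe letters in a window and do not show binding.

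Ribosomal protein probe sets mostly gave strong signals. The mean over the 16 arrays of type A was at least 12 on the log2 scale for 63 of the 91 probe sets, between 8 and 12 for 9 and under 8 for 19. Signals of different probe sets depend on their probes and cannot be ranked as RNA levels, and probe sets of one gene differed widely. The means ran from 2.70 to 14.63 for the 2 probe sets of Rps4x, from 3.87 to 15.15 for the 6 of Rps18 and from 3.23 to 14.28 for the 4 of Rps20. They ran from 4.30 to 15.25 for the 6 of Rpl35 and from 4.87 to 15.11 for the 6 of Rps10. The strongest signals came from Rpl35 (1455950_x_at, 15.25), Rps18 (1435712_a_at, 15.15), Rps10 (1434854_a_at, 15.11), Rps29 (1438859_x_at, 14.96) and Rplp0 (14.95). The weakest came from probe sets of Rpl27a (1419799_at, 2.70), Rps4x (1420303_x_at, 2.70), Rps20 (1421935_at, 3.23), Rps6 (1453466_at, 3.37) and Rpsa (1416196_at, 3.39). These 5 were below the filter used for testing, a mean of 4.97 (the 40th percentile of all probe sets), and are given by signal only.

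The filter left 82 member probe sets on array A and 2 on array B. These values varied little from array to array. The SD over the 16 arrays had a median of 0.107 for the 82 and of 0.0974 for the 63 with a mean of at least 12, in which the largest was 0.266. Other probe sets with a mean of at least 12, 614 in number, had a median SD of 0.133, and all 13576 tested probe sets of array A one of 0.194. The 614 were cut at 12 and not otherwise matched to the members in signal. Of the 91 members of array A, 37 had a mean between 14 and 16, where the highest single value was 15.75. Whether signals this near the top are compressed was not tested, so a small SD need not mean a steady RNA amount.

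Facts of the whole series that bear on these values are few. Correlations between replicates were 0.976 to 0.996 on array A. Fibroblast markers were above the filter for 10 of 10 genes and endothelial markers for 0 of 4. Epithelial markers were above it for 2 of 5 genes, macrophage and blood markers for 3 of 6, neural markers for 3 of 4 and skeletal muscle markers for 1 of 4. The title numbers of the samples fall into 2 number runs, replicates 3 and 4 in the second and replicates 1 and 2 in the first, and the labels do not say what the runs are. The Gapdh control's 3′ minus 5′ signal on array A lay between -0.0054 and 0.158 in the second run and between -0.237 and -0.0214 in the first. Irradiation raised the p53 targets Mdm2 (log2 difference 1.67, SE 0.21, limma adjusted p = 7.1e-05) and Cdkn1a (1.31, SE 0.11, limma adjusted p = 1.4e-06), averaged over the genotypes, as a check of that label.

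The genotype comparison asked how mutation of Oct-1 bears on these genes. Few ribosomal protein probe sets passed the test for genotype, and those that did had weaker signals than most members. Averaged over irradiation, 4 of 82 passed an adjusted p of 0.05 on array A, against 10.6% of all tested probe sets. Rps25 and Rpl14 fell in the mutant cells (4.01% of all fell), and Rps6 and Rpl22 rose (6.57% of all rose). All 4 were among the 19 tested probe sets with a mean under 12, and 0 of the 63 stronger ones passed, against 8.26% of all tested probe sets with a mean of at least 12. At an unadjusted p under 0.05 there were 8 of these 63, against 23.2% of all tested probe sets with such a mean. The median difference was 0.030 over the 82 and 0.0021 over all tested probe sets. Of the 63, all had a 95% interval inside 0.5 on either side of 0. In bulk RNA, fewer cells of one type and less RNA per cell cannot be told apart. Fibroblast markers moved with genotype too: 4 of 10 (Pdgfra, Thy1, Dcn and Lum) were higher in mutant cells and 0 lower, and the list's mean log2 level lay between 12.07 and 12.52 in mutant samples and between 11.66 and 11.83 in wild type samples. The epithelial marker Krt18, 1 of 2 tested on that list, was also higher (0.46, SE 0.11, limma adjusted p = 0.016). The part of these markers in the member values was not tested.

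Rps25, a protein of the small subunit that initiation at some internal ribosome entry sites requires, has 1 member probe set. Its log2 signal was 7.49, 8.09, 8.01 and 8.18 in Oct-1 mutant irradiated cells and 7.56, 7.71, 7.85 and 7.83 in Oct-1 mutant unirradiated cells. It was 8.81, 8.81, 9.02 and 9.31 in wild type irradiated cells and 8.80, 8.66, 9.00 and 9.21 in wild type unirradiated cells. All 8 mutant samples lay below all 8 wild type samples. The mutant minus wild type difference was -1.04 (SE 0.16, limma adjusted p = 0.00088) in irradiated cells and -1.18 (SE 0.16, limma adjusted p = 0.00030) in unirradiated cells. Averaged over both, it was -1.11 (SE 0.11, 95% interval -1.35 to -0.87, limma adjusted p = 6.1e-06), a signal 2.16-fold lower. The probe set (1430978_at) had a mean of 8.40, where the member median on array A was 13.81. No other member probe set checks it, and whether it reports the main Rps25 message was not tested. Irradiation itself moved Rps25 by 0.21 (SE 0.16) in mutant cells and by 0.07 (SE 0.16) in wild type cells, neither past the threshold (limma adjusted p = 0.58 and 0.92).

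Rps6, the small subunit protein phosphorylated by S6 kinases downstream of mTOR, moved the other way. The tested probe set read 8.73, 9.09, 8.76 and 8.73 in Oct-1 mutant irradiated cells and 8.78, 8.53, 8.73 and 8.55 in Oct-1 mutant unirradiated cells. It read 8.46, 8.30, 8.14 and 8.17 in wild type irradiated cells and 7.96, 8.29, 8.27 and 8.31 in wild type unirradiated cells. Again the 8 mutant samples did not overlap the 8 wild type samples, as for 2 of 82 member probe sets in all, against 2.66% of all tested probe sets. The difference was 0.56 (SE 0.11, limma adjusted p = 0.0071) in irradiated cells and 0.44 (SE 0.11, limma adjusted p = 0.035) in unirradiated cells. The average was 0.50 (SE 0.08, limma adjusted p = 0.00048), a signal 1.42-fold higher. The other Rps6 probe set (1453466_at) lay between 3.19 and 3.71 and was not tested. The unirradiated call for Rps6 was lost in 9 of 25 alternative settings, and over all 25 the difference ran from 0.36 to 0.53.

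Rpl14, a large subunit protein, read 9.02, 9.12, 8.62 and 8.91 in Oct-1 mutant irradiated cells and 8.87, 9.00, 8.59 and 8.27 in Oct-1 mutant unirradiated cells. It read 9.39, 9.27, 9.21 and 9.20 in wild type irradiated cells and 9.10, 9.19, 9.08 and 8.85 in wild type unirradiated cells. The irradiated groups did not overlap, and the unirradiated groups did. The averaged difference was -0.36 (SE 0.10, limma adjusted p = 0.029). Neither irradiated cells alone (-0.35, SE 0.14, limma adjusted p = 0.24) nor unirradiated cells alone (-0.38, SE 0.14, limma adjusted p = 0.20) passed. The averaged call was lost in 9 of 25 alternative settings, and over all 25 the difference ran from -0.49 to -0.24.

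Rpl22, a large subunit protein that is needed for the development of alpha-beta T cells in mice, was measured by 3 probe sets. The weak one (1448398_s_at) read 7.91, 8.12, 8.24 and 8.16 in Oct-1 mutant irradiated cells and 7.84, 7.91, 8.23 and 7.91 in Oct-1 mutant unirradiated cells. It read 7.73, 7.81, 7.91 and 7.84 in wild type irradiated cells and 7.78, 7.70, 7.75 and 7.74 in wild type unirradiated cells. Within each irradiation state the mutant samples lay above the wild type samples. The averaged difference was 0.26 (SE 0.07, limma adjusted p = 0.019), a call lost within the first number run alone. The stronger array A probe set (1416603_at) differed by 0.13 (SE 0.05, limma adjusted p = 0.16) and the array B probe set (1453118_s_at) by -0.057 (SE 0.033, limma adjusted p = 0.41), so the 3 probe sets of Rpl22 did not give one answer.

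**Figure D1:**
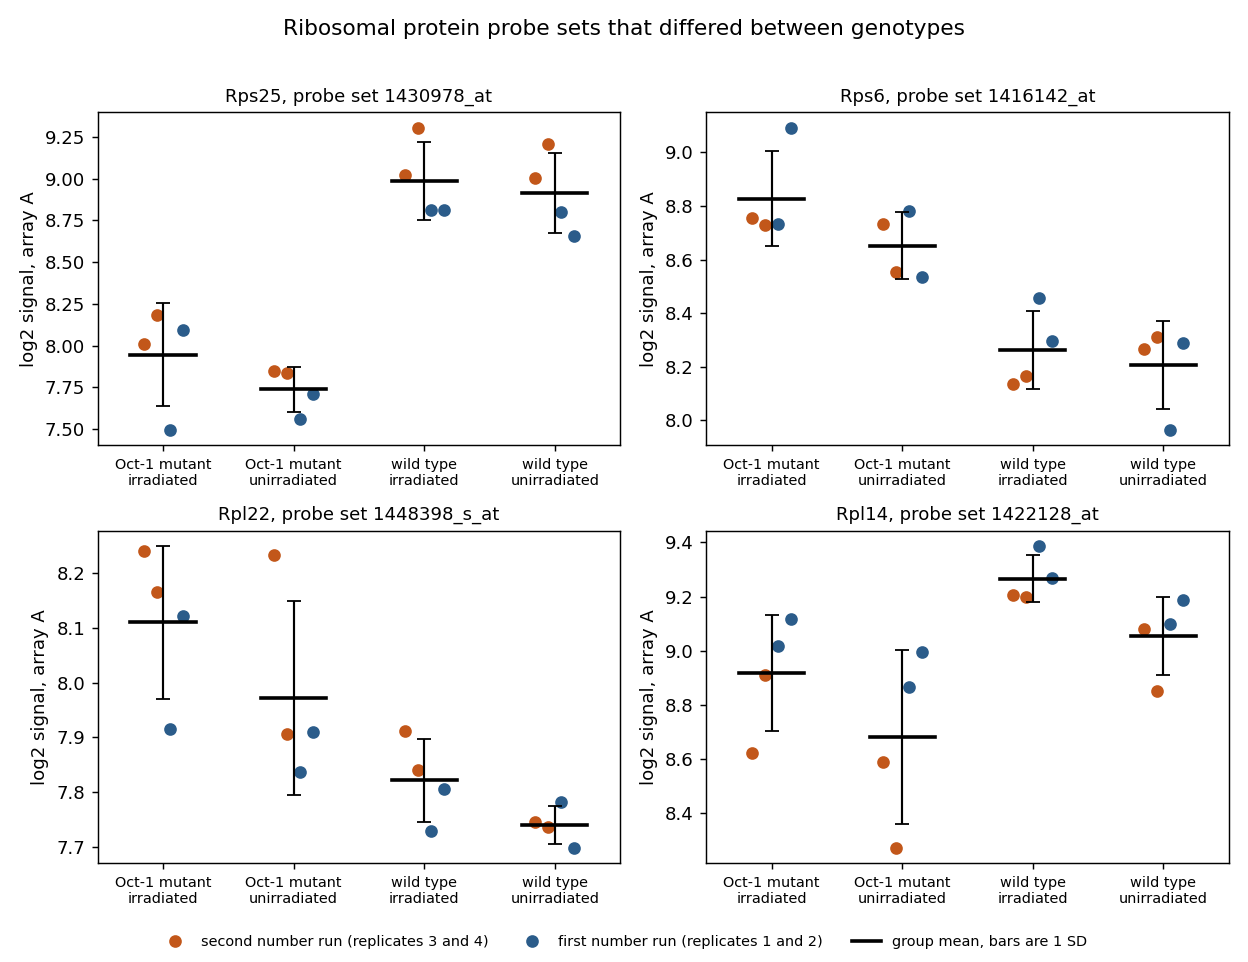
Log2 signal on array A of the 4 ribosomal protein probe sets past an adjusted p of 0.05 for genotype averaged over irradiation. Points are the 4 replicates of each group (16 in all), coloured by number run, lines are group means and bars 1 SD. Rps25 and Rpl14 are lower and Rps6 and Rpl22 higher in the Oct-1 mutant groups, and the genotypes do not overlap for Rps25 and Rps6.

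Within irradiated cells the calls were Rps6 higher and Rps25 lower, 2 of 82, against 3.8% of all tested probe sets, and 5 of 82 member probe sets had groups that did not overlap, against 9.57% of all. Within unirradiated cells the same 2 probe sets passed, against 3.87% of all tested probe sets, and 5 of 82 did not overlap, against 9.58% of all. Besides the 4 genes above, the groups that did not overlap were those of Rps24 (1455195_at, -0.30, SE 0.13) in irradiated cells and of Rpl35 (1454856_x_at, -0.15, SE 0.06) and Rps20 (1456436_x_at, -0.088, SE 0.063) in unirradiated cells, with none past the threshold (limma adjusted p = 0.26, 0.20 and 0.61).

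With the replicate number as a block, 10 of 82 passed for genotype averaged over irradiation (4 higher, 6 lower), against 22.5% of all tested probe sets in that fit. Beside the 4 named above these were 2 probe sets of Rps24 in opposite directions (0.25, SE 0.09, and -0.24, SE 0.08), 2 of Rpl35 (-0.10 and -0.11), 1 of Rps29 (0.13) and 1 of Rpl13a (-0.15). In irradiated cells the block gave 4 calls, against 10.4% of all tested probe sets, with Rpl22 (limma adjusted p = 0.030) and Rpl14 (limma adjusted p = 0.035) beside Rps25 and Rps6. In unirradiated cells it gave 3, with Rpl14 (limma adjusted p = 0.023) as the third, against 11.1% of all tested probe sets.

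Of the genes chosen for their role, Rps6 and 1 probe set of Rpl22 passed for genotype, as given above, and the others did not. Averaged over irradiation, the stalk proteins Rplp0 and Rplp2, which recruit elongation factors, differed by 0.060 (SE 0.046) and 0.047 (SE 0.045). Rpl11, which joins the 5S RNA and binds Mdm2, differed by 0.024 (SE 0.035, 95% interval -0.050 to 0.097), and the 2 probe sets of Rps7, another Mdm2-binding protein, by 0.060 (SE 0.068) and 0.014 (SE 0.032). Rps3, a small subunit protein at the entry of the message channel, differed by -0.0088 (SE 0.039) on array A and by -0.045 (SE 0.096) on array B. Rpsa, also known as the laminin receptor, differed by 0.022 (SE 0.049) and Rps19, mutated in Diamond-Blackfan anaemia in humans, by 0.081 (SE 0.044). The 4 probe sets of Rpl13a, which also takes part in translational silencing in human myeloid cells, ran from -0.15 to 0.061. The limma adjusted p of these ran from 0.079 to 0.93. Rplp1, Rpl5, Rpl23, Rpl26 and Rps27a, 5 of the 15 role genes, had no member probe set.

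The irradiation comparison asked how these genes respond to radiation in either genotype. No member probe set passed within either genotype in the fit of group means alone, and most differences were slightly above 0. In Oct-1 mutant cells 0 of 82 passed with limma, against 4.66% of all tested probe sets, with 8 at an unadjusted p under 0.05, against 17.8% of all. In wild type cells 0 of 82 passed, against 3.84% of all, with 2 at an unadjusted p under 0.05, against 15.2% of all. The median difference was 0.060 in mutant cells, with 61 of 82 probe sets above 0, and 0.055 in wild type cells, with 60 above 0. All tested probe sets had medians of 0.0073 and 0.0079, with 51.8% and 52.0% above 0. Of the other probe sets with a mean of at least 12, 53.9% and 59.8% were above 0. Several genes have more than 1 of the 82 probe sets, so these are not 82 separate genes. Groups did not overlap for 4 of 82 member probe sets in mutant cells and for 2 of 82 in wild type cells, against 10.7% of all tested probe sets in each.

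Averaged over the genotypes, 2 of 82 passed, both higher, against 12.9% of all tested probe sets called and 7.38% called higher. With the genotypes pooled, the 8 irradiated and 8 unirradiated samples overlapped for all 82 member probe sets, where 3.0% of all tested probe sets did not overlap. The 2 were Rpl37a and Rpsa. With 1 extract left out the count ran from 1 to 7, with 7 without Oct-1 mutant unirradiated replicate 4 and 5 without wild type unirradiated replicate 4. The median difference was 0.067, against 0.0060 over all tested probe sets and 0.021 over the 614 other probe sets with a mean of at least 12. Of the tested markers of fibroblasts and other cell types, Pdgfra alone was called for irradiation averaged over genotypes, lower by a log2 difference of -0.72 (SE 0.11, limma adjusted p = 0.00056), and it was also lower within each genotype. Its part in the member values was not tested.

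Rpl37a, a large subunit protein with a zinc-binding fold, is measured by 3 probe sets. The one that passed (1416217_a_at) read 14.44, 14.54, 14.57 and 14.58 in Oct-1 mutant irradiated cells and 14.39, 14.31, 14.39 and 14.47 in Oct-1 mutant unirradiated cells. It read 14.46, 14.47, 14.57 and 14.42 in wild type irradiated cells and 14.38, 14.31, 14.28 and 14.36 in wild type unirradiated cells. The wild type groups did not overlap, and the mutant groups did. The averaged difference was 0.15 (SE 0.03, 95% interval 0.073 to 0.22, limma adjusted p = 0.010), a signal 1.11-fold higher after irradiation. The call was lost after scaling by the 75th percentile and within either number run alone, with differences of 0.11 to 0.16 over 25 alternative settings. The other probe sets of Rpl37a differed by 0.071 (SE 0.049) and 0.040 (SE 0.031), with limma adjusted p = 0.40 and 0.47.

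Rpsa read 13.54, 13.74, 13.73 and 13.79 in Oct-1 mutant irradiated cells and 13.51, 13.48, 13.49 and 13.64 in Oct-1 mutant unirradiated cells. It read 13.57, 13.62, 13.81 and 13.70 in wild type irradiated cells and 13.50, 13.48, 13.43 and 13.65 in wild type unirradiated cells. Irradiated and unirradiated groups overlapped in both genotypes. The averaged difference was 0.17 (SE 0.05, 95% interval 0.062 to 0.27, limma adjusted p = 0.035). This call was lost in 16 of 25 alternative settings, and over all 25 the difference stayed between 0.12 and 0.21.

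Rps19 came next by p, with 14.01, 14.17, 14.11 and 14.07 in Oct-1 mutant irradiated cells and 13.76, 13.88, 14.04 and 14.01 in Oct-1 mutant unirradiated cells. It had 13.91, 13.94, 14.05 and 14.02 in wild type irradiated cells and 13.84, 13.83, 13.86 and 13.97 in wild type unirradiated cells. The difference of 0.14 (SE 0.04, limma adjusted p = 0.052) missed the threshold, and the groups overlapped in both genotypes.

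One probe set of Rps29 (1438859_x_at), a zinc finger protein of the small subunit, lay lower in irradiated mutant cells. It read 14.83, 14.84, 14.94 and 14.91 in Oct-1 mutant irradiated cells and 14.98, 15.02, 15.17 and 15.05 in Oct-1 mutant unirradiated cells, with no overlap. It read 14.88, 14.90, 14.96 and 15.00 in wild type irradiated cells and 14.92, 15.09, 14.97 and 14.93 in wild type unirradiated cells, which overlapped. The difference was -0.18 (SE 0.05, limma adjusted p = 0.063) in mutant cells. The other Rps29 probe sets gave 0.12 (SE 0.09) and 0.13 (SE 0.07) in the same comparison, the opposite sign. Probe sets of Rps9 also had opposite signs, with averaged differences of 0.15 (1433689_s_at, SE 0.06), -0.28 (1434624_x_at, SE 0.10) and -0.22 (1426958_at, SE 0.14).

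**Figure D2:**
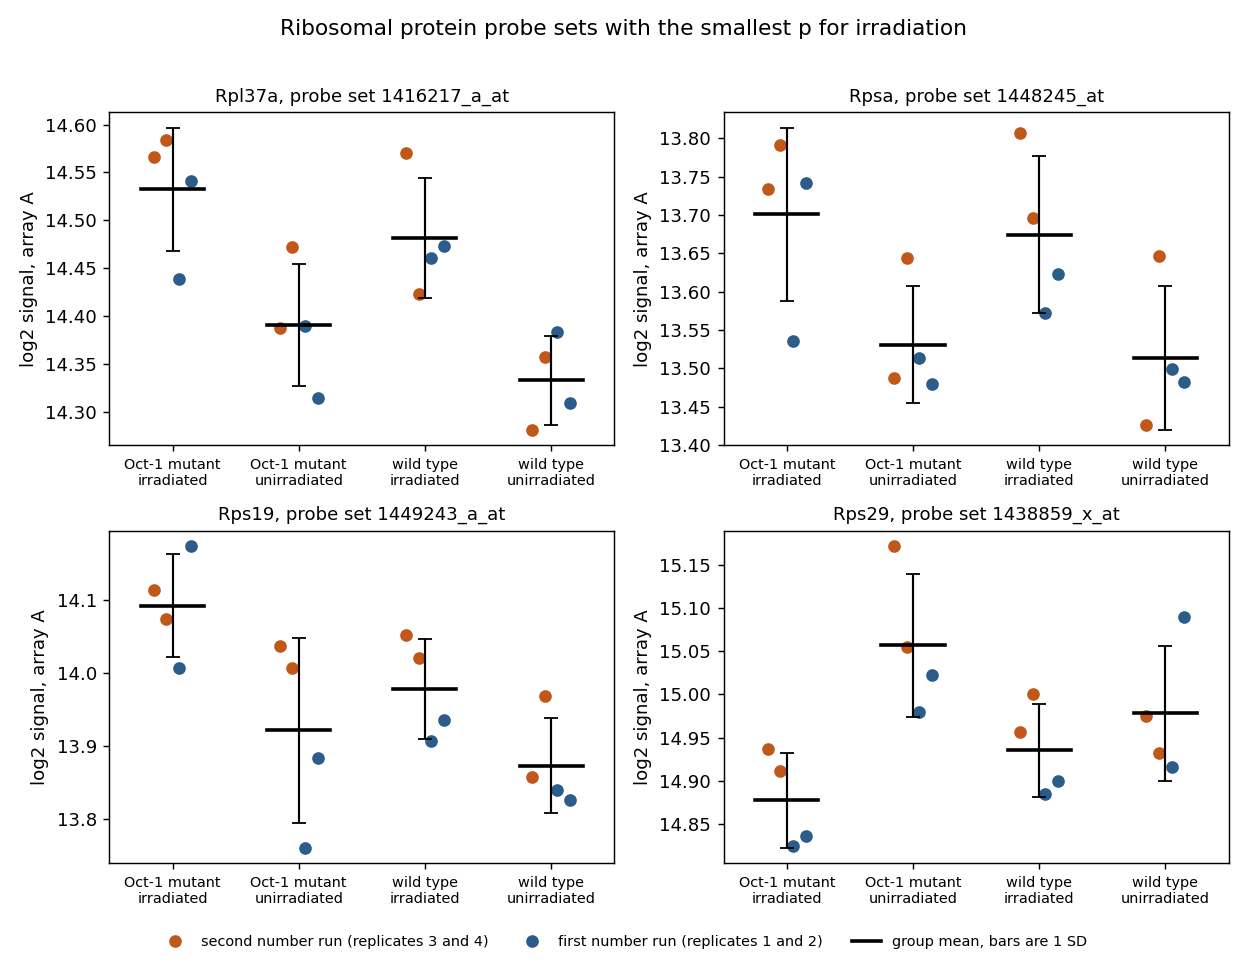
Log2 signal on array A of Rpl37a and Rpsa, the 2 ribosomal protein probe sets past an adjusted p of 0.05 for irradiation averaged over genotypes, and of Rps19 and 1 probe set of Rps29, the next by p. Points are the 4 replicates of each group, coloured by number run, lines are group means and bars 1 SD. Rpl37a, Rpsa and Rps19 have higher means in the irradiated groups by 0.14 to 0.17, and the Rps29 probe set lower ones.

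With the replicate number as a block the averaged comparison gave 14 calls of 82 (12 higher, 2 lower), against 25.2% of all tested probe sets in that fit. Those higher were Rps9 (1433689_s_at), Rpl37a, Rpsa, Rps19, 2 probe sets of Rpl13a, Rpl8, Rpl14, Rpl6, Rpl7a, Rps29 (1437413_x_at) and Rps15, with differences from 0.11 to 0.22. Those lower were Rps29 (1438859_x_at, -0.11) and Rps9 (1434624_x_at, -0.28). Within mutant cells the block gave 2 calls, Rps29 (1438859_x_at) and Rps19, against 12.8% of all tested probe sets. Within wild type cells it gave 2, Rpl6 (0.18, SE 0.05) and Rps9 (1433689_s_at, 0.17, SE 0.05), against 10.4% of all.

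The Mdm2-binding members were near 0 beside the change in Mdm2. Rpl11 read 13.47, 13.50, 13.51 and 13.53 in Oct-1 mutant irradiated cells and 13.33, 13.45, 13.44 and 13.39 in Oct-1 mutant unirradiated cells, without overlap. It read 13.30, 13.49, 13.51 and 13.50 in wild type irradiated cells and 13.44, 13.42, 13.38 and 13.40 in wild type unirradiated cells, with overlap. Its averaged difference was 0.069 (SE 0.035, 95% interval -0.0043 to 0.14, limma adjusted p = 0.22). The 2 probe sets of Rps7 differed by 0.051 (SE 0.068) and 0.026 (SE 0.032). The stalk members Rplp0 and Rplp2 differed by 0.053 (SE 0.046) and 0.073 (SE 0.045). The 4 probe sets of Rpl13a differed by 0.076 to 0.15. The limma adjusted p of Rps7, Rplp0, Rplp2 and Rpl13a ran from 0.15 to 0.71.

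On array B, Rps3 (1455600_at) read 8.17, 8.34, 8.39 and 8.15 in Oct-1 mutant irradiated cells and 7.92, 8.15, 8.24 and 8.25 in Oct-1 mutant unirradiated cells. It read 8.57, 8.55, 8.45 and 8.27 in wild type irradiated cells and 7.59, 8.05, 8.22 and 8.27 in wild type unirradiated cells. The wild type groups did not overlap, but the lowest irradiated and the highest unirradiated sample were both 8.27 to 2 decimals, and 4.78% of all tested probe sets of array B did not overlap in this comparison. The wild type difference was 0.43 (SE 0.14, limma adjusted p = 0.29), and the array A probe set of Rps3 gave 0.091 (SE 0.055, limma adjusted p = 0.48). The Rpl22 probe set of array B lay between 13.84 and 14.14 in all 16 samples. On array B 0 of the 2 tested member probe sets passed in any limma comparison, and both had an unadjusted p under 0.05 for irradiation in wild type cells (7.11% of all tested probe sets) and averaged over genotypes (10.4% of all). Of all tested probe sets of array B, 0.681% were called for irradiation in mutant cells, 0.77% in wild type cells and 2.14% averaged. For genotype 0.363% were called in irradiated cells, 0.437% in unirradiated cells and 1.9% averaged. The number runs gave 15.8%.

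The difference of the irradiation effects, mutant minus wild type, was called for 0 of 82 member probe sets with limma, and 0 had an unadjusted p under 0.05. No probe set of array A was called (0% of 13576), and 146 had an unadjusted p under 0.05. The member differences ran from -0.27 to 0.18 with a median of 0.0033. The smallest p values were those of Rps29 (1438859_x_at, -0.14, SE 0.07), Rps24 (1436500_at, -0.27, SE 0.22) and Rps2 (1431766_x_at, 0.12, SE 0.09). The interval of this difference was inside 0.5 on either side of 0 for 72 of the 82. For Rpl37a (1416217_a_at) it ran from -0.15 to 0.14 and for Rpsa from -0.20 to 0.22.

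The comparison of number runs, with group means in the fit, asked how replicates 3 and 4 differed from replicates 1 and 2 of the same groups. Here 32 of 82 member probe sets passed (39.0%), against 45.9% of all tested probe sets. Of the 32, 31 were higher in the second run and 1 lower, while 21.1% of all tested probe sets were called higher and 24.9% lower. The median difference was 0.073, against 0.0026 over all tested probe sets and 0.039 over the 614 other probe sets with a mean of at least 12, of which 203 were higher and 110 lower. This split moved with the scaling of the arrays. Quantile normalization gave 15 higher and 5 lower member calls, against 48.9% of all tested probe sets called, and the member median of 0.022 was then below the 0.040 of all tested probe sets. Subtracting each array's 75th percentile gave 51 higher and 1 lower, against 50.1% of all, with medians of 0.13 for members and 0.056 for all. Over all tested probe sets the share of calls that were higher was 45.9% as deposited, 57.1% after quantile normalization and 60.8% after the percentile scaling.

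The 6 smallest adjusted p among the higher calls belonged to Rps18 (1455572_x_at), Rpl37, Rps7 (1419364_a_at), Rpl27, Rplp2 and Rpl6. Rps18, a protein of the head of the small subunit, had a low of 13.92, a median of 13.99 and a high of 14.09 in the second run, against 13.55, 13.60 and 13.78 in the first. Its difference was 0.37 (SE 0.04, limma adjusted p = 4.6e-07), and the runs did not overlap. Another probe set of Rps18 (1448739_x_at) differed by 0.022 (SE 0.029, limma adjusted p = 0.55).

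Rpl37, a large subunit protein, had a low of 10.94, a median of 11.19 and a high of 11.37 in the second run, against 10.42, 10.69 and 10.83 in the first. The difference was 0.50 (SE 0.06, limma adjusted p = 2.6e-06), without overlap. Rps7 (1419364_a_at) had a low of 13.60, a median of 13.72 and a high of 13.85 in the second run, against 13.36, 13.52 and 13.58 in the first, also without overlap (0.22, SE 0.04, limma adjusted p = 0.00018). The other Rps7 probe set (1435593_x_at) differed by -0.0012 (SE 0.033, limma adjusted p = 0.98). These 3 were the only member probe sets of array A whose runs did not overlap, 3 of 82, against 8.3% of all tested probe sets.

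The runs overlapped for the large subunit proteins Rpl27 (0.22, SE 0.04) and Rpl6 (0.18, SE 0.04) and for Rplp2 (0.14, SE 0.03), which passed with limma adjusted p = 0.00038, 0.0017 and 0.00048. Rplp0 passed as well (0.11, SE 0.04, limma adjusted p = 0.026), a call that was lost in 9 of 25 alternative settings. The widest difference was that of a weak Rpl27a probe set (1437729_at), 1.60 (SE 0.38, limma adjusted p = 0.0026). It had a low of 5.67, a median of 7.63 and a high of 10.29 in the second run, against 5.54, 6.29 and 6.63 in the first, so the runs overlapped and the second was the more variable. Rps25 (0.31, SE 0.08) and Rps24 (1436500_at, 0.28, SE 0.08) were also higher in the second run (limma adjusted p = 0.0030 and 0.0093).

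Rpl14 was the 1 member called lower, with a low of 8.27, a median of 8.88 and a high of 9.21 in the second run, against 8.87, 9.11 and 9.39 in the first (-0.28, SE 0.07, limma adjusted p = 0.0031). The next lowest differences, those of Rpl41 (1433530_at, -0.21), Rps24 (1455195_at, -0.14), Rps9 (1426958_at, -0.11) and Rps10 (1456497_x_at, -0.075), did not pass.

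**Figure D3:**
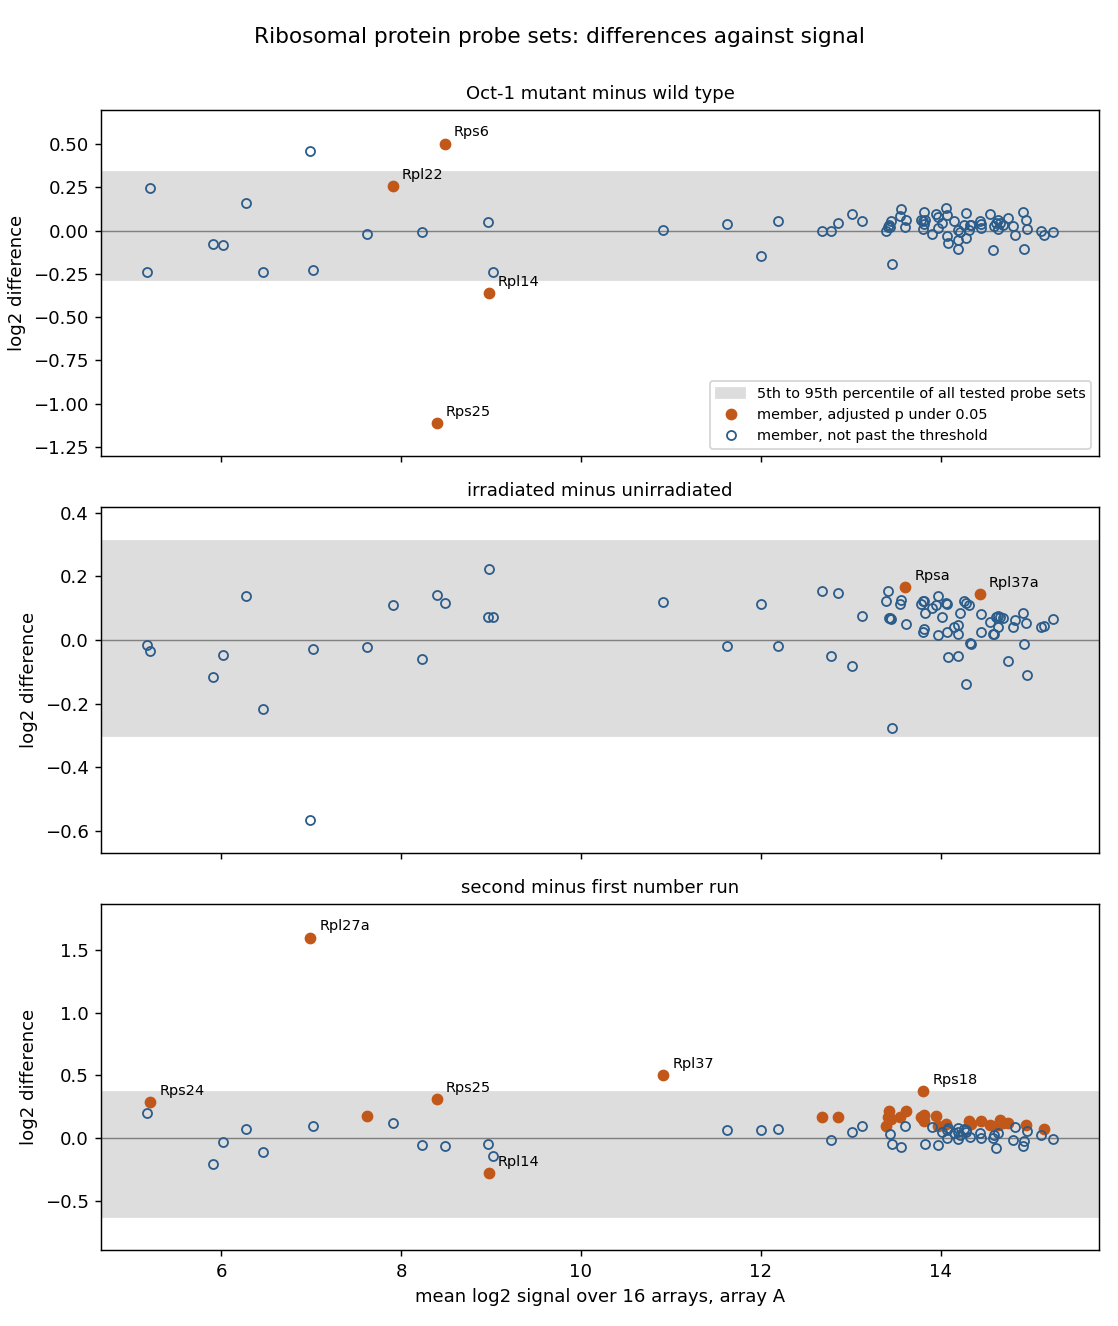
Log2 difference of the 82 tested ribosomal protein probe sets of array A (vertical) against their mean log2 signal (horizontal), for genotype averaged over irradiation, irradiation averaged over genotypes and second minus first number run. Filled points passed an adjusted p of 0.05 (4, 2 and 32 probe sets), open points did not, and the grey band spans the 5th to 95th percentile of all 13576 tested probe sets. Rps25 lies far below the band for genotype, and most filled points of the number run comparison lie above 0 inside the band.

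The shift showed in the median of the members on each array. The median deviation of the 82 probe sets from their own means was -0.021, 0.013, 0.058 and 0.086 in Oct-1 mutant irradiated replicates 1 to 4. It was -0.036, -0.065, -0.0068 and 0.062 in the Oct-1 mutant unirradiated replicates. In wild type cells it was -0.038, -0.026, 0.066 and 0.052 in the irradiated replicates and -0.045, -0.10, -0.029 and 0.018 in the unirradiated replicates. Within each group both samples of the second run lay above both samples of the first. The same order held in each group for the other probe sets with a mean of at least 12, with smaller deviations. The member range was -0.029 to 0.086 in the second run and -0.10 to 0.013 in the first. The other probe sets with a mean of at least 12 ranged from -0.0048 to 0.027 in the second run and from -0.051 to 0.0013 in the first. The Gapdh 3′ minus 5′ signal moved with the runs too. Of 10 fibroblast markers 7 were higher and 2 lower in the second run, and the list's mean log2 level lay between 11.67 and 12.52 there and between 11.66 and 12.20 in the first. The neural markers Tubb3 and Nes (2 of 3 tested) and Adgre1 (1 of 3 macrophage and blood markers tested) were higher, and Krt19 (1 of 2 epithelial markers tested) was lower. Acta1, the 1 skeletal muscle marker of 4 above the filter, was higher by 0.91 (SE 0.11, limma adjusted p = 4.4e-06). Their part in the member values was not tested.

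**Figure D4:**
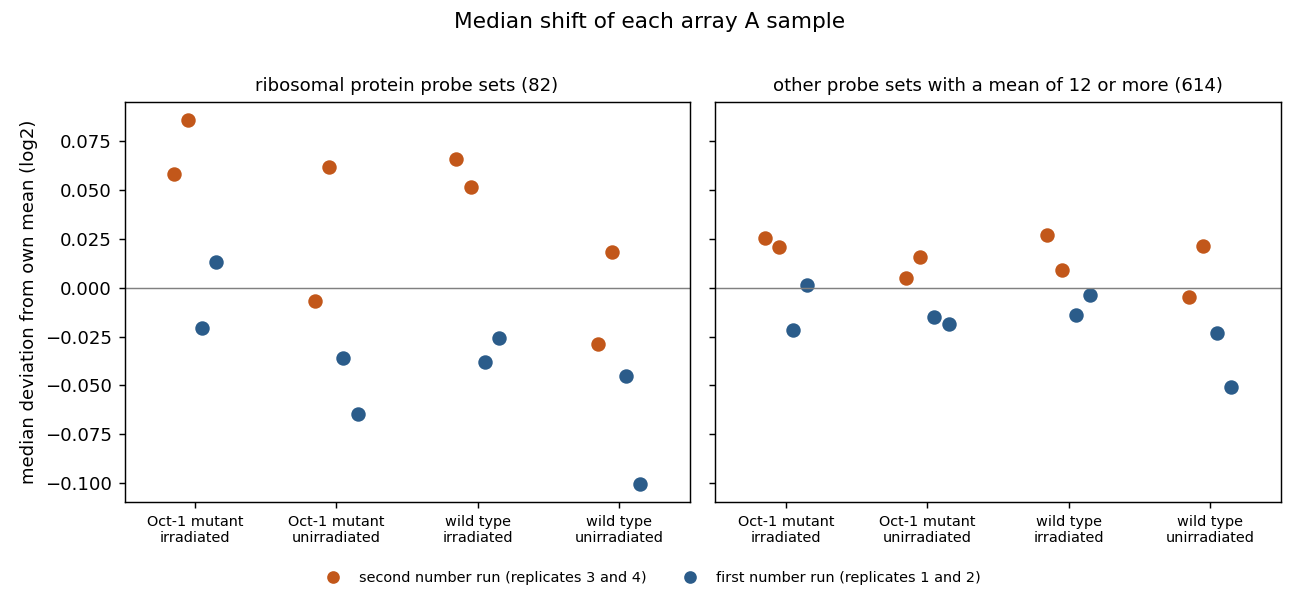
Median deviation (log2) of the 82 ribosomal protein probe sets (left) and of 614 other probe sets with a mean of at least 12 (right) from their own means, 1 point per array A sample by group, coloured by number run. In every group the second run lies above the first in both panels. The ribosomal protein probe sets span -0.10 to 0.086, and the other strong probe sets span -0.051 to 0.027.

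The members were also counted by subunit and by type of probe set, to be read against the 10.6% of all tested probe sets called for genotype, 12.9% for irradiation and 45.9% for the number runs. For genotype averaged over irradiation the large subunit had 1 higher and 1 lower of 39 (median 0.033), and the small subunit 1 higher and 1 lower of 43 (median 0.030). For irradiation averaged over genotypes they had 1 higher each, with medians of 0.071 and 0.047. For the number runs they had 15 higher and 1 lower of 39 (median 0.085), and 16 higher of 43 (median 0.065). The X-linked members Rps4x (1416276_a_at) and Rpl39 were higher in the second run (0.11 and 0.17, limma adjusted p = 0.027 and 0.021) and were not called for genotype or irradiation. Probe sets with the ending _x_at, the design's mark for probes that may also bind other transcripts, had 0 of 36 calls for genotype and 12 of 36 for the number runs. Those ending in _a_at had 0 of 26 and 11 of 26. The genotype calls fell in the other endings, with 3 of 18 for _at and 1 of 2 for _s_at. For the number runs these had 8 of 18 and 1 of 2. The 93 tested probe sets that list a ribosomal protein gene with other genes, which are not members, had 5 higher and 1 lower for irradiation, 1 higher for genotype, and 36 higher and 1 lower for the number runs.

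Neighbouring gene lists, each gene taken by its strongest probe set on array A, were set beside the members. Of all tested probe sets 6.57% were called higher and 4.01% lower in mutant cells, 7.38% higher and 5.47% lower after irradiation, and 21.1% higher and 24.9% lower in the second run. Of 51 ribosome biogenesis and RNA polymerase I genes, 10 fell and 0 rose in mutant cells averaged over irradiation (median -0.14), where the 42 ribosomal protein genes had 1 higher and 2 lower (median 0.023). Gnl3, the nucleolar GTPase nucleostemin, fell by 0.29 (SE 0.08, limma adjusted p = 0.021), and Nop56, a core protein of box C/D particles, fell by 0.23 (SE 0.06, limma adjusted p = 0.015). After irradiation, averaged over genotypes, 8 of the 51 fell and 2 rose (median -0.075), against 0 lower and 1 higher of the 42 ribosomal protein genes (median 0.071). Whether the lists differ from each other was not tested. Of 13 translation factor genes with TOP messages, 1 rose after irradiation and 1 fell in mutant cells (medians 0.024 and -0.020). Of 74 mitochondrial ribosomal protein genes, whose products serve the ribosome inside mitochondria, 8 rose after irradiation and 0 fell (median 0.084), and 5 rose and 2 fell in mutant cells (median 0.00020). In the number run comparison the mitochondrial list had 12 higher and 17 lower (median -0.00050), against 17 higher and 1 lower of the 42 cytosolic genes (median 0.080).

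Of the ribosomal protein-like paralogs that the rule left out, 5 were tested, each by its strongest probe set on array A. Averaged over genotypes, 2 of the 5 rose and 1 fell after irradiation, against 7.38% and 5.47% of all tested probe sets. These were Rpl7l1, Rps27l and Rps4l, and the list's median was 0.0001. Averaged over irradiation, 1 was higher in mutant cells, against 6.57% of all. Within mutant cells 1 fell after irradiation, against 1.84% of all. Rps27l, a p53 target, rose after irradiation by 0.15 (SE 0.04, limma adjusted p = 0.030), averaged over genotypes. Rps4l was higher in mutant cells by 0.35 (SE 0.05, limma adjusted p = 0.00027). Rpl22l1, the paralog of Rpl22, fell after irradiation in mutant cells by 0.34 (SE 0.09, limma adjusted p = 0.047), with -0.066 (SE 0.091) in wild type cells, and the difference of these effects did not pass (-0.27, SE 0.13, limma adjusted p = 1).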

How the data were processed

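Each of 16 RNA extracts was measured on 2 Affymetrix array types, A and B, in 4 groups of 4. The deposited tables hold 1 value per probe set and sample, which ran up to 15.75 for array A and 15.51 for array B. These deposited values were taken as log2 from their range, since how the authors summarised and normalized them, and the log base, is not stated in the labels. No further normalization was applied. Gene names came from the platform annotation, with symbols updated where possible. One sample's replicate number, Oct-1 mutant unirradiated replicate 1 on array A, was taken from the array B sample with the same title number.

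Control probe sets and probe sets with a mean below the 40th percentile (4.97 on array A, 3.36 on array B) were left out, which left 13576 and 13507. The array types had separate fits in limma 3.58.1 (R 4.3.3): 4 group means, eBayes with an intensity trend, and Benjamini-Hochberg adjustment over all tested probe sets, with calls at an adjusted p under 0.05. The number run comparison added a run term to the group means. The fit was tested on simulated data with independent noise on each array. That simulation held no number runs or shared replicates, so it cannot show how the fit handles them. Tables and figures used Python 3.11.15, numpy 2.4.6, pandas 2.3.3 and matplotlib 3.10.9.

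Named probe sets were the role genes, all calls of a comparison if 6 or fewer and otherwise the 6 smallest adjusted p in each direction, the 3 smallest p where none passed, and the extremes of signal and of the run difference. Other probe sets of the same genes, those called with the replicate block and those whose groups did not overlap were named after their values were seen. The members and lists were chosen with earlier results of these data known. Same-numbered samples deviated together from their group means (correlation 0.32 to 0.72 over 24 pairs on array A, 0.24 to 0.60 on array B), so the replicate number was used as a block in an alternative fit. Samples of the same run with different numbers gave a similar median (0.56 against 0.58 on array A). Other alternatives were quantile normalization, scaling to the 75th percentile, other filters, no intensity trend, a number run block, each run alone, each extract left out and other choices of member probe sets. The number of arrays limits the precision.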

Additional observations from a re-analysis of the deposited data

Results flagged for a closer look

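In 13 of 164 checks (41 named probe sets, each in 4 groups of 4), 1 sample lay apart from the other 3 by Dixon's criterion. Over all 95 member probe sets it was 22 of 380 checks. Chance alone gives about 1 in 20, and some named probe sets had been picked for extreme values, which that rate does not allow for. On array A among tested probe sets, Rpl11 was 13.30 in wild type irradiated replicate 1 (the others 13.49 to 13.51), and Rps7 (1435593_x_at) was 14.30 in the same sample (14.47 to 14.49). Rplp0 was 14.71 in wild type unirradiated replicate 2 (14.95 to 14.97), and Rpl13a (1455001_x_at) was 12.61 there (12.79 to 12.81). Rps6 was 9.09 in Oct-1 mutant irradiated replicate 2 (8.73 to 8.76) and 7.96 in wild type unirradiated replicate 1 (8.27 to 8.31), and both are the samples farthest from the other genotype. Rps24 (1455195_at) was 8.78 in wild type unirradiated replicate 1 (9.14 to 9.21). Rps18 (1435712_a_at) was 15.23 in wild type irradiated replicate 3 (15.16 to 15.17).

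The other 5 were probe sets below the filter. Rpl27a (1419799_at) was 3.25 in Oct-1 mutant irradiated replicate 3 (2.57 to 2.67) and 3.08 in wild type unirradiated replicate 3 (2.58 to 2.62). Rps20 (1421935_at) was 3.58 in wild type unirradiated replicate 2 (3.21 to 3.23), and Rps4x (1420303_x_at) was 2.85 in wild type irradiated replicate 3 (2.67 to 2.70). On array B, Rps16 was 3.92 in wild type unirradiated replicate 3 (2.55 to 2.68).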

How the results depend on the processing

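Counts of called members under the alternatives, over both array types, stayed within 1.5 times the reported count in 169 of 224 cases. No reported call of a named member changed direction. Differences of named members that were not called are not covered by this. Irradiation in mutant cells (0 calls) gave 1 after quantile normalization, with the 60th percentile filter, within the first run and with probe sets of several genes (a setting chosen after seeing the data), and 2 with the replicate block or the run block. It ran from 0 to 1 with an extract left out, 1 without Oct-1 mutant unirradiated replicate 4 or wild type unirradiated replicate 2. Irradiation in wild type cells (0) gave 2 with the replicate block and 1 with probe sets of several genes. Irradiation averaged over genotypes (2) gave 0 after 75th percentile scaling, 1 with no filter, no intensity trend, 1 probe set per gene or either run alone, 4 after quantile normalization or the 60th percentile filter, 8 with probe sets of several genes, 13 with the run block and 14 with the replicate block. With an extract left out it ran from 1 to 7, with 7 without Oct-1 mutant unirradiated replicate 4, 5 without wild type unirradiated replicate 4, and 1 without Oct-1 mutant irradiated replicate 2 or 4, Oct-1 mutant unirradiated replicate 2, wild type irradiated replicate 3 or 4, or wild type unirradiated replicate 1, 2 or 3. Genotype in irradiated cells (2) gave 4 with either block and 1 within the first run. Genotype in unirradiated cells (2) gave 1 with no filter or within the first run, 4 with the run block, and 1 to 2 with an extract left out, 1 without Oct-1 mutant replicate 1, 3 or 4 or wild type replicate 1, 2 or 3 of the unirradiated groups. Genotype averaged over irradiation (4) gave 10 with the replicate block, 9 with the run block and 7 within the second run. It gave 3 to 5 with an extract left out. Of all tested probe sets of array A, the run block called 25.0% for irradiation averaged over genotypes and 22.3% for genotype averaged over irradiation. The replicate block called 25.2% and 22.5% for the same comparisons. The run block also called 12.5% for irradiation in mutant cells, and for genotype 10.3% in irradiated and 10.8% in unirradiated cells. The number run comparison (32) gave 20 after quantile normalization, 52 after 75th percentile scaling, 15 in irradiated and 10 in unirradiated groups only, 13 in Oct-1 mutant and 16 in wild type groups only, 19 without _s_at and _x_at probe sets, 18 with 1 probe set per gene, 73 with probe sets of several genes, and 26 to 35 with an extract left out. The cause of these changes was not tested, except that comparisons within a run or a pair of groups hold fewer samples and the last choices change the number of probe sets counted. Rps25 passed in all 25 alternatives in each genotype comparison, with an averaged difference of -1.16 to -1.04, and Rps6 in all 25 when averaged (0.46 to 0.54).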
